A study of Mus musculus with 24 samples.

Results

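RNA of 10 genes for secreted inflammatory signals was followed in the hippocampus of 24 mice, out of 55385 gene identifiers counted per mouse. The genes were chosen by name, with earlier results of these data known. They were the cytokines Il1b, Tnf, Il6 and Lif, the chemokines Ccl2, Ccl3, Ccl4, Ccl12 and Cxcl10, and the growth factor Tgfb1. All mice carried Tsc1 alleles that Cre recombinase can delete (Tsc1 fl/fl), and all received tamoxifen. In Tsc1-Cre+ mice a Camk2a transgene drives a tamoxifen-dependent Cre (CreERT2), so that Tsc1, an inhibitor of mTOR signaling, is removed from CAMK2A-expressing neurons. The other hippocampal cells keep it, and their RNA is counted too. There were 6 groups of 4 adult mice: Tsc1-Cre- controls, taken on day 8; Tsc1-Cre+ mice taken on day 4, 6, 8 or 13 after gene deletion; and mice of the group Tsc1-Cre+-Rap 4, given the mTOR inhibitor rapamycin at 10 mg/kg each day from day 4 until they were taken on day 13. Mice were of both sexes, and the 4 mice of a group are named A to D as in the labels. In this model seizures set in at about day 8, and the seizure load of single mice was not used here.

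IL-1 beta and TNF are early cytokines of microglia and other macrophages and act largely through the transcription factor NF-kB. IL-6 and LIF use the shared receptor subunit gp130 and activate STAT3, which in astrocytes accompanies reactive gliosis. CCL2 and CCL12 attract monocytes through the receptor CCR2, CCL3 acts on CCR1, CCL4 is a related chemokine, and CXCL10, an interferon-responsive chemokine, acts on CXCR3. TGF-beta 1 is made in a latent form and restrains inflammation in the brain, where it also maintains microglia.

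Total counts per mouse ranged from 28208561 (Rap 4 mouse A) to 126435936 (day 13 mouse B), and a count of 0 in a library allows up to 3 counts, for counting error only. Day 13 mice A and B, whose libraries held 71.2% of the counts of their group, stood apart from mice C and D in several of the genes below. Tsc1 was between 103 and 110 CPM (counts scaled to a common library size) in the controls and between 56.7 and 82.0 CPM in the 20 Tsc1-Cre+ mice, with no overlap. Animal numbers in the deposited files place the controls and the day 8 mice in 1 series and the mice of the other groups elsewhere, so that cohort and time point or treatment cannot be told apart for the latter. In RNA of a whole tissue, more cells of a type and more RNA per cell cannot be told apart either.

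The genes lie on 5 chromosomes of GRCm38. Ccl2 (chr11:82035571-82037453) and Ccl12 (chr11:82101845-82103400), both on the plus strand, are 64391 bases apart, with Ccl7 and Ccl11 between them. Ccl3 (chr11:83647844-83649355, minus strand) and Ccl4 (chr11:83662584-83664683, plus strand) are 13228 bases apart. Lif lies on the same chromosome (chr11:4257557-4272514, plus strand), Il1b at chr2:129364570-129371139 (minus), Tnf at chr17:35199381-35202007 (minus), Il6 at chr5:30013114-30019981 (plus), Cxcl10 at chr5:92346638-92348889 (minus) and Tgfb1 at chr7:25687002-25705077 (plus). All are protein-coding. Il1b overlaps the antisense gene Il1bos, Ccl2 overlaps Gm17268 and Cxcl10 overlaps Art3 on the opposite strand, and as the strand setting of the counting was not given in the sources used here, their counts may hold reads of the partner.

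The stretch before the gene start is shown for 4 genes that behaved differently in these mice: Lif and Ccl12, with the 2 largest fold changes on day 13, Cxcl10, which was high in the same mice, and Il6, which was not called wherever it was tested. RefSeq (GRCm38.p6) holds such a stretch for 8 of the 10 genes. Capitals mark matches, on either strand, to the motifs of NF-kB, AP-1 (TGANTCA), C/EBP (TTGCNNAA), the interferon-stimulated response element (ISRE), STAT (TTCNNNGAA) and the TATA box (TATAAA). Lif is read from chr11:4257318-4257556, plus strand, Ccl12 from chr11:82101595-82101833, plus strand, Cxcl10 from chr5:92348901-92349139, minus strand and Il6 from chr5:30012864-30013102, plus strand.
Lif: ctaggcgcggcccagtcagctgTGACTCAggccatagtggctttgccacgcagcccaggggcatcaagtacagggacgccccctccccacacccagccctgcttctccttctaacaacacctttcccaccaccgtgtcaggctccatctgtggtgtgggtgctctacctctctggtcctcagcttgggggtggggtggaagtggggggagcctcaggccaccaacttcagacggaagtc
Ccl12: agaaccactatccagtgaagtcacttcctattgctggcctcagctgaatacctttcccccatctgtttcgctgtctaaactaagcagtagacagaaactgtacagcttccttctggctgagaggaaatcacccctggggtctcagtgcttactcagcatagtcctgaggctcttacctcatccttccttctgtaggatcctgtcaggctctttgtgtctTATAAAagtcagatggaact
Cxcl10: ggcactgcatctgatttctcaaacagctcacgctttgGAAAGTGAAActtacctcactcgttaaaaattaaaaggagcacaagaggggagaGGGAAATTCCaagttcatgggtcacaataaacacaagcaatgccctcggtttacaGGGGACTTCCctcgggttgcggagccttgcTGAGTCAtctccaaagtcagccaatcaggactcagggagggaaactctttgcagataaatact
Il6: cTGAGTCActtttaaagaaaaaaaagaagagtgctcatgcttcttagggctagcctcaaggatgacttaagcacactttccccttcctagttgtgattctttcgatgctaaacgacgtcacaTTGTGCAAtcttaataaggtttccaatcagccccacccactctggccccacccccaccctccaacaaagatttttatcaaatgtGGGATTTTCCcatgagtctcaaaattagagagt

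Counted from the RefSeq start of the gene, where the last base printed is at -12, the Cxcl10 stretch held 2 NF-kB matches (first bases at -159 and -104), an ISRE match at -213 and an AP-1 match at -74. Il6 held an NF-kB match at -44, a C/EBP match at -128 and an AP-1 match at -249. Lif held an AP-1 match at -228 and Ccl12 a TATA box at -31. Of 32534 RefSeq promoter stretches of the same length, 4.33% held the NF-kB motif, 6.54% the AP-1 motif, 9.28% the C/EBP motif, 2.85% the ISRE, 6.76% the STAT motif and 12% the TATA box. None of the 8 genes had the STAT motif in this stretch, Il1b and Tnf had a TATA box alone, and Ccl3 and Tgfb1 had no match. A match is a description of the letters only.

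Most of these RNAs were rare. The median count over the 24 mice was 78.5 for Tgfb1, 31.0 for Lif, 13.0 for Il1b, 10.0 for Il6, 9.0 for Ccl12, 4.0 for Tnf, Ccl3 and Cxcl10, 3.0 for Ccl2 and 2.0 for Ccl4. Per exon length, the control level was 0.321 ± 0.0251 (SD, n = 4) in CPM per kilobase of exon (RPKM) for Tgfb1 and 0.224 ± 0.143 RPKM for Ccl12, and lay between 0.0305 RPKM (Cxcl10) and 0.121 RPKM (Il1b) for the other 8. On day 13 the order by mean changed: Lif was at 7.18 ± 9.69 RPKM and Ccl12 at 4.09 ± 4.57 RPKM, ahead of Ccl2 (0.629 ± 0.674 RPKM) and Tgfb1 (0.522 ± 0.150 RPKM). The SDs were larger than the means for the first 3, and this order was not tested. In RPKM, Lif was above Ccl12 in day 13 mice A and B and below it in mice C and D. Ccl12 was above Ccl2 in all 4 mice. Of the counts from 1 to 40, 83.2% were even for these genes and 61.8% for all genes, so both reads of a pair may have been counted for many fragments, and the number of independent molecules may be lower than the counts.

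**Figure D1:**
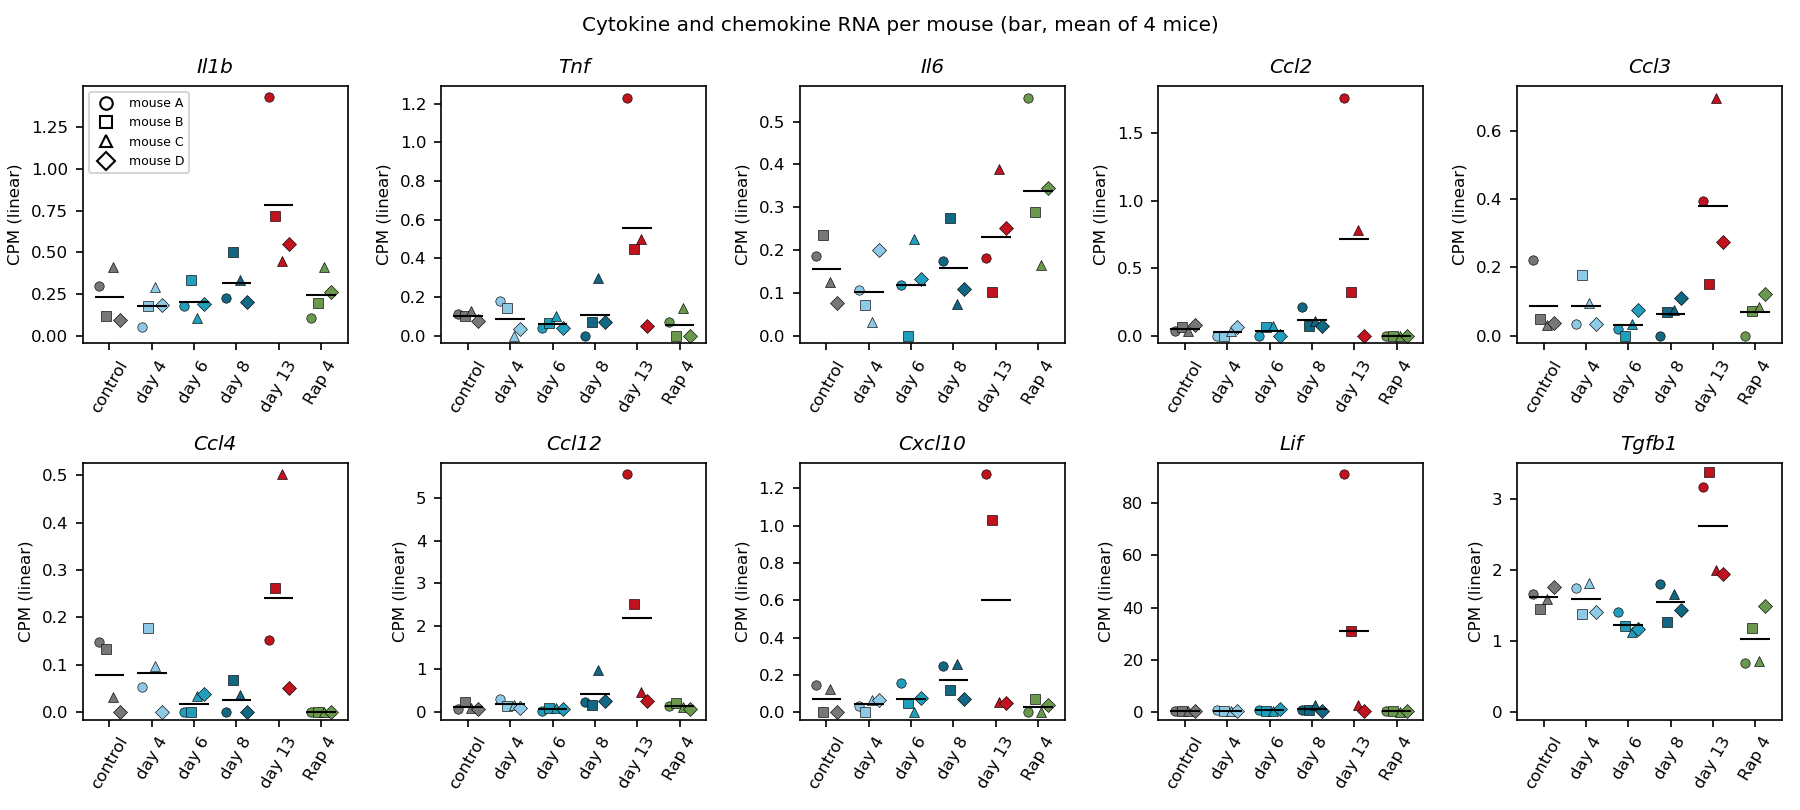
Level of each of the 10 genes in each mouse, in CPM on linear axes that differ between panels, with the mean of the 4 mice of each group as a bar; the symbols give mice A to D. On day 13 the levels of Lif, Ccl12 and Cxcl10 are high in mice A and B, while Ccl3 and Ccl4 are highest in mouse C.

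Across the 6 groups, 8 of the 10 genes differed in edgeR's F test over all 24 mice (adjusted p < 0.05, where 41.9% of the 27110 genes tested passed). Lif had the smallest adjusted p of them (F = 23.3, edgeR adjusted p = 9.26e-07), followed by Ccl12 (edgeR adjusted p = 1.04e-05), Ccl2 (1.86e-04) and Tgfb1 (2.29e-04). Il6 did not pass (edgeR adjusted p = 0.210), and Ccl4 had too few counts to be tested.

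To ask when these RNAs changed, each group was compared with the controls. Genes counted as called had an edgeR adjusted p below 0.05 together with a log2 fold change beyond 0.5 in either direction. Il1b, Lif and Tgfb1 had enough counts in all comparisons. Ccl12 had enough on day 8 and day 13 but not on days 4 and 6. Ccl3 and Il6 had enough on day 13 but not on days 4, 6 and 8. The presence of Ccl12, Ccl3 and Il6 in the day 13 test thus depends on that group's counts. Likewise, Ccl12 entered the day 8 test through the day 8 mice.

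On day 4 and day 6 none of the 10 genes was called, where 0.68% and 1.32% of all genes tested were. The controls had 26, 33, 30 and 28 counts of Lif, the day 4 mice 50, 32, 40 and 30, and the day 6 mice 46, 28, 18 and 62. The Lif ranges overlap, with a log2 fold change of 0.34 ± 0.24 (standard error) on day 4 and 0.44 ± 0.35 on day 6. Tgfb1 had 90, 87, 101 and 91 counts in the controls and 72, 77, 65 and 62 on day 6. In CPM all 4 day 6 mice lay below the controls (1.23 ± 0.124 against 1.62 ± 0.126 CPM, SD, n = 4), but the log2 fold change of -0.40 was not called (edgeR adjusted p = 0.104), and 4.06% of all genes with a count had such a separation. At an unadjusted p under 0.05, 0 of the 3 genes tested passed on day 4 and 1 (Tgfb1) on day 6, and DESeq2 called 0 on either day (background 1.13% and 1.59%). The 7 genes below the filter had 0 to 18 counts per mouse on these days, and their smallest exact permutation p was 0.0857, for Tnf on day 6 (adjusted p = 0.417).

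On day 8, the time of seizure onset, again 0 genes were called (background 3.99%), while 2 of the 4 tested, Ccl12 and Lif, had an unadjusted p under 0.05. Ccl12 counts were 14, 10, 53 and 14, against 4, 14, 6 and 4 in the controls (log2 fold change 1.75 ± 0.63, edgeR adjusted p = 0.0912). Lif counts were 57, 40, 148 and 22 (log2 fold change 1.24 ± 0.49, edgeR adjusted p = 0.123). Mouse C was the highest for both genes and mouse D the lowest for Lif, below all controls in CPM. Without mouse C the log2 fold change was 0.88 for Ccl12 and 0.45 for Lif. DESeq2 called Lif on day 8 (log2 fold change 1.26, adjusted p = 0.0473, background 5.25%), as did edgeR without mouse D (1.53, adjusted p = 0.0355). Of the 6 genes below the filter on day 8, Ccl2 had 12, 4, 6 and 4 counts against 2 to 4 in the controls, and Cxcl10 had 14, 7, 14 and 4 against 0 to 8, with exact permutation p = 0.114 and 0.171.

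On day 13 5 of the 10 genes were called higher and none lower: Lif, Ccl12, Ccl3, Il1b and Tgfb1. Among all 24920 genes tested, 16.5% were called. Over all genes tested the median log2 fold change was -0.04. Without the filter on low counts, which lets all 10 genes be tested, 8 were called, adding Tnf, Ccl2 and Cxcl10, where 9.77% of all genes were. The rise was uneven between mice. With mice C and D alone against the controls, a choice made after seeing the data, 1 gene, Ccl3, was called (background 9.67%).

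Lif, a cytokine of the IL-6 family that signals through LIFR and gp130, showed the largest change. Its counts were 5987, 3666, 95 and 14 in day 13 mice A to D, against 26 to 33 in the controls. Mice A (90.9 CPM) and B (31.0 CPM) were far above all other mice, mouse C (2.65 CPM) was above the controls (0.474 to 0.554 CPM) and mouse D (0.351 CPM) was below them. These counts gave a 61.1-fold higher level (log2 fold change 5.93 ± 1.39, edgeR adjusted p = 0.0132). Without mouse A the log2 fold change was 4.48, and it was called with any 1 mouse left out, but not with mice C and D alone (1.56, edgeR adjusted p = 0.0793). Mice A and B held 98.9% of the day 13 counts of Lif and 91.7% of its counts over all 24 mice.

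Ccl12, a ligand of CCR2, had 365, 298, 17 and 10 counts on day 13, and it passed the filter through this group. All 4 mice lay above the controls in CPM, with mice A (5.54 CPM) and B (2.52 CPM) the highest of the 24. Its level was 18.2-fold higher (log2 fold change 4.19 ± 0.95, edgeR adjusted p = 0.0118), 3.22 on the log2 scale without mouse A, and not called with mice C and D alone (1.58, edgeR adjusted p = 0.0942). Ccl2 had 116, 38, 28 and 0 counts, against 2 to 4 in the controls. Mice A (1.76 CPM), C (0.780 CPM) and B (0.322 CPM) were high and mouse D had none. Ccl2 did not pass the filter, and a two-sided exact permutation test of its CPM over the 70 arrangements gave p = 0.143 (adjusted over 35 such tests, 0.417), while edgeR without the filter gave a log2 fold change of 3.73 (edgeR adjusted p = 0.0144).

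Ccl3 and Ccl4, neighbouring genes for related chemokines, differed from this order of mice. Ccl3 had 26, 18, 25 and 11 counts on day 13 and 12, 3, 2 and 2 in the controls. In CPM, mouse C was highest (0.697) and mouse B lowest (0.152), below control A (0.222). The log2 fold change was 2.09 ± 0.69 (edgeR adjusted p = 0.0490), and the call was lost without any one of control mice B, C and D or day 13 mice A, C and D (adjusted p from 0.0541 to 0.125). It was kept with mice C and D alone (log2 fold change 2.52, edgeR adjusted p = 0.0392). That choice was made after seeing the data and includes mouse C, so it is no independent support for the call. Ccl4 had 10, 31, 18 and 2 counts on day 13 and 8, 8, 2 and 0 in the controls, and mouse C was again highest (0.502 CPM). It was not called with or without the filter (exact permutation p = 0.114; edgeR log2 fold change without the filter 1.57, adjusted p = 0.225).

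Il1b had 94, 85, 16 and 22 counts on day 13 and 16, 7, 26 and 5 in the controls. All day 13 mice were above all controls in CPM (0.446 to 1.43 against 0.0967 to 0.411), a separation that 9.02% of all genes with a count also showed. The level was 3.43-fold higher (log2 fold change 1.78 ± 0.51, edgeR adjusted p = 0.0299), and the call was lost without control mouse A, B or D or day 13 mouse A (adjusted p from 0.0590 to 0.0812), and after thinning all libraries to the smallest (log2 fold change 1.34, adjusted p = 0.135). Tnf had 81, 53, 18 and 2 counts, against 4 to 8 in the controls, and was high in mice A (1.23 CPM), C (0.502 CPM) and B (0.449 CPM) but not D (0.0501 CPM). It did not pass the filter (exact permutation p = 0.143), and without the filter its log2 fold change was 2.42 (edgeR adjusted p = 0.0216).

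Cxcl10 had 84, 122, 2 and 2 counts on day 13 and 8, 0, 8 and 0 in the controls. Mice A (1.28 CPM) and B (1.03 CPM) held 98.1% of the group's counts, and mice C and D were within the control range. It did not pass the filter (exact permutation p = 0.286), and without the filter its log2 fold change was 3.17 (edgeR adjusted p = 0.0470), whereas DESeq2 gave 3.16 with an adjusted p of 0.141. Il6 had 12, 12, 14 and 10 counts, against 10, 14, 8 and 4 in the controls, and its log2 fold change was 0.45 ± 0.51 (edgeR adjusted p = 0.535). With a standard error of this size a moderate change of Il6 could not be detected.

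Tgfb1, with the highest mean of the 10 RNAs per length in controls, had 209, 400, 72 and 78 counts on day 13. All 4 mice lay above the controls in CPM, A (3.17) and B (3.39) more than C (2.01) and D (1.95), against 1.46 to 1.76. The level was 1.64-fold higher (log2 fold change 0.72 ± 0.20, edgeR adjusted p = 0.0289). The call was lost without any one of the 4 controls or day 13 mouse A or B (adjusted p from 0.0608 to 0.0807).

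**Figure D2:**
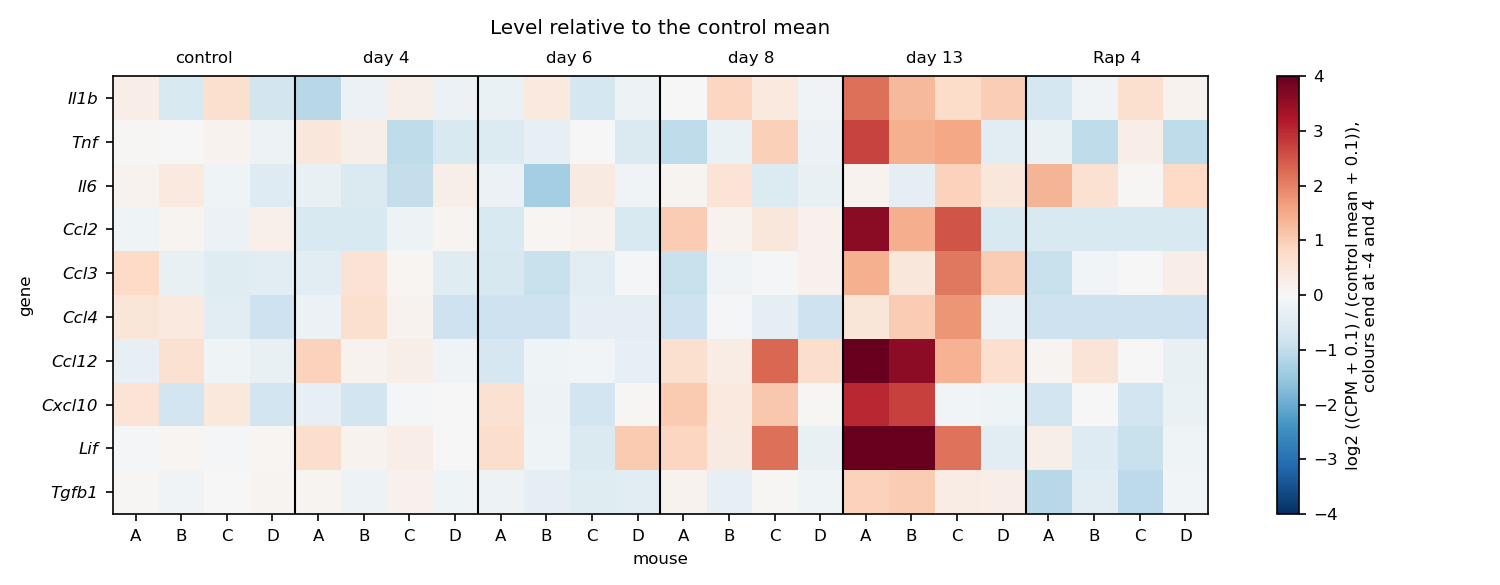
Level of the 10 genes in the 24 mice as log2((CPM + 0.1)/(control mean + 0.1)), with red for higher and blue for lower than the control mean. Mice A and B on day 13 are the reddest columns for Lif, Ccl12 and Cxcl10, and day 8 mouse C is red for Lif and Ccl12.

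To ask whether rapamycin from day 4 changed these levels, the Rap 4 mice were compared with the controls and with the untreated day 13 mice, which share a day of sacrifice. Against the controls 0 genes were called (background 1.41%), and DESeq2 called 0 (background 2.33%). Of the 4 tested, 2 (Il6 and Tgfb1) had an unadjusted p under 0.05. Il6 was below the filter on days 4, 6 and 8 against the same controls, so its presence in this test depends on the counts of the Rap 4 mice. Against day 13, Lif, Ccl12, Tgfb1 and Il1b were called lower, 4 of the 10 genes (background 21.1%), and none was called higher. Over all genes tested the median log2 fold change was 0.02. Without the filter 9 of the 10 were called lower (background 12.4%), all but Il6.

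Lif had 18, 18, 11 and 22 counts in the Rap 4 mice, 80.7-fold below day 13 (log2 fold change -6.33 ± 1.44, edgeR adjusted p = 0.00938), and -4.89 without day 13 mouse A. It overlapped day 13, since Rap 4 mice A and D were above day 13 mouse D in CPM. Ccl12 had 4, 12, 6 and 4 counts and was 15.7-fold lower (log2 fold change -3.97 ± 0.92, edgeR adjusted p = 0.0105). All 4 mice were below day 13 for Ccl12, as for 9.58% of all genes with a count. Ccl12 was below the filter against the controls and entered this test through the day 13 mice. Il1b had 3, 11, 20 and 13 counts (log2 fold change -1.66 ± 0.46, edgeR adjusted p = 0.0217), also with no overlap in CPM, and its call was lost without day 13 mouse A or Rap 4 mouse A, B or D (adjusted p from 0.0541 to 0.0655). With day 13 mice C and D alone as the reference, a choice made after seeing the data, Lif was called (log2 fold change -1.94, edgeR adjusted p = 0.0448) and Ccl12, Il1b and Tgfb1 were not. Ccl3 was called as well (-2.66, edgeR adjusted p = 0.0180), but it was below the filter with all 4 day 13 mice, and these 2 mice include mouse C, where it was highest.

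Ccl2 and Ccl4 had 0 counts in all 4 Rap 4 mice, out of 176488885 counts. With a floor of 3 counts over the group, Ccl2 was at least 38.8-fold lower than on day 13 (182 counts) and at least 3.16-fold lower than in the controls (12 counts), and Ccl4 at least 13.0-fold lower than on day 13 (61 counts) and at least 4.74-fold lower than in the controls (18 counts). Day 13 mouse A held 116 of the 182 counts of Ccl2, and without it the bound was 18.9-fold. If each molecule gave 2 counts, the 4 bounds would be 19.4-fold, 1.58-fold, 6.5-fold and 2.37-fold. All bounds take the counts of the reference group as exact. The exact permutation p was 0.0286 for Ccl2 against the controls and for Ccl4 against day 13, the smallest that 4 mice against 4 allow, but the adjusted p over the 35 tests was 0.333. Of all genes with a count, 4.1% were lower in all 4 Rap 4 mice than in all controls. The exact permutation p was 0.143 both for Ccl2 against day 13 and for Ccl4 against the controls. Against the controls, edgeR without the filter gave an adjusted p of 0.184 for Ccl2 and 0.129 for Ccl4. Ccl3 (0, 4, 4 and 6 counts) was below day 13 in all 4 mice (exact permutation p = 0.0286, adjusted p = 0.333). Tnf had 2, 0, 7 and 0 counts and Cxcl10 0, 4, 0 and 2, and neither was called by the permutation test (p = 0.0857 and 0.114 against day 13).

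Tgfb1 had 20, 66, 35 and 74 counts in Rap 4 mice, with a mean of 1.03 ± 0.390 CPM (SD, n = 4), 2.56-fold below day 13 with no overlap (log2 fold change -1.35 ± 0.29, edgeR adjusted p = 0.00731). Against the controls the log2 fold change was -0.62 ± 0.23 (edgeR adjusted p = 0.165), and mouse D lay within the control range. Il6 had 16, 16, 8 and 17 counts, with a log2 fold change of 1.05 ± 0.45 against the controls (edgeR adjusted p = 0.235) and 0.60 ± 0.50 against day 13 (edgeR adjusted p = 0.384).

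**Figure D3:**
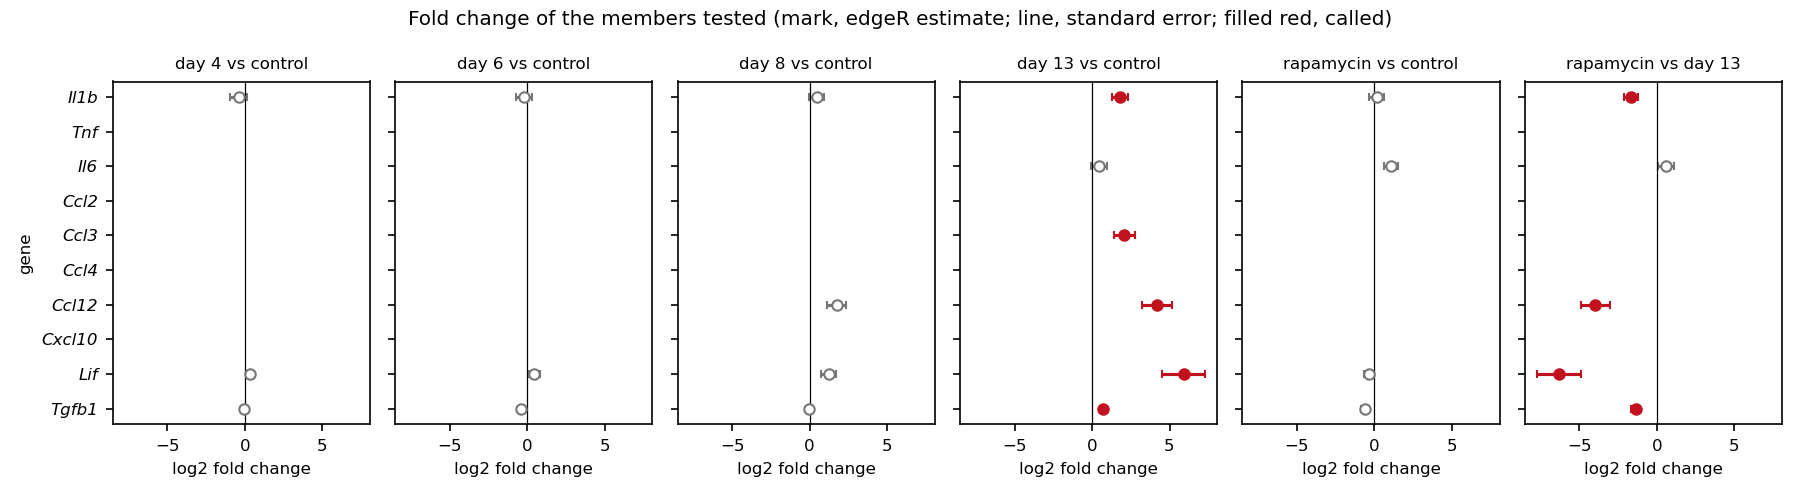
Log2 fold change of each gene with enough counts in the 6 comparisons (mark) and its standard error (line), with called genes filled in red; genes without a mark were not tested. On day 13 Lif reaches 5.93 and Ccl12 4.19, and both are below 0 for rapamycin against day 13 (-6.33 and -3.97).

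Other genes of these pathways were counted in lists chosen by function, with earlier results of these data known. On day 13, where 16.5% of all genes were called, 10 of 15 genes of the STAT3 list and 7 of 19 of the NF-kB list were called higher and 0 lower in both, and 5 of 16 targets of TGF-beta were higher and 0 lower. The median log2 fold change was 1.39 in the STAT3 list, 0.69 in the NF-kB list and 0.53 in the TGF-beta targets, beside -0.04 for all genes tested. Of the interferon list 0 of 16 were called by edgeR (3 at an unadjusted p under 0.05; DESeq2 called 1 higher), with a median of -0.05. Of the other cytokines, 13 of 20 had enough counts to be tested, and 2 were higher and 2 lower. Of 20 other chemokines 11 were tested, and 2 were higher and 2 lower. Of 22 receptors and receptor antagonists 19 were tested, and 6 were higher and 1 lower. Of the TGF-beta family 2 of 8 were higher (1 of them Gdf15, which had enough counts only in this comparison) and 2 lower, and of the genes for processing and sensing 3 of 15 were higher and 0 lower. With mice C and D alone, 6 of the STAT3 list, 4 of the NF-kB list and 2 of the TGF-beta targets were called higher (background 9.67%). On day 8, 1 gene of each of the STAT3, NF-kB and TGF-beta target lists was higher, and 2 chemokines and 2 genes of the TGF-beta family were lower. These 1 of 15, 1 of 19 and 1 of 16 are close to the 3.99% of all genes called on that day. On day 4, 2 of the other cytokines and 1 receptor were lower and 1 NF-kB gene was higher (background 0.68%). On day 6, 2 of the other cytokines, 1 of the other chemokines and 1 receptor were lower and 1 STAT3 gene was higher (background 1.32%).

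The STAT3 list was led by Socs3, an inhibitor induced by STAT3 that damps gp130 signaling (log2 fold change 5.20 ± 1.13, edgeR adjusted p = 0.0100), the protease inhibitor gene Serpina3n, a marker of reactive astrocytes (2.84 ± 0.55), and the AP-1 gene Junb (2.16 ± 0.50). Socs3 was at 97.5, 35.1, 7.33 and 0.977 CPM in day 13 mice A to D, against 0.833 to 1.10 CPM in the controls. The order of the mice was the same as for Lif. Osmr, the receptor chain for oncostatin M that pairs with gp130, rose by 2.15 ± 0.47 on the log2 scale, with Tnfrsf1a, a TNF receptor, at 1.55 ± 0.43 and Ccr1, a receptor of CCL3, at 1.52 ± 0.26. Clcf1, another cytokine of the IL-6 family, was higher too (2.94 ± 0.95, edgeR adjusted p = 0.0451). It was at 18.9 and 17.7 CPM in mice A and B and at 0.697 and 0.802 CPM in C and D. On day 6 Clcf1 had been called lower (-0.65, edgeR adjusted p = 0.04545).

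**Figure D4:**
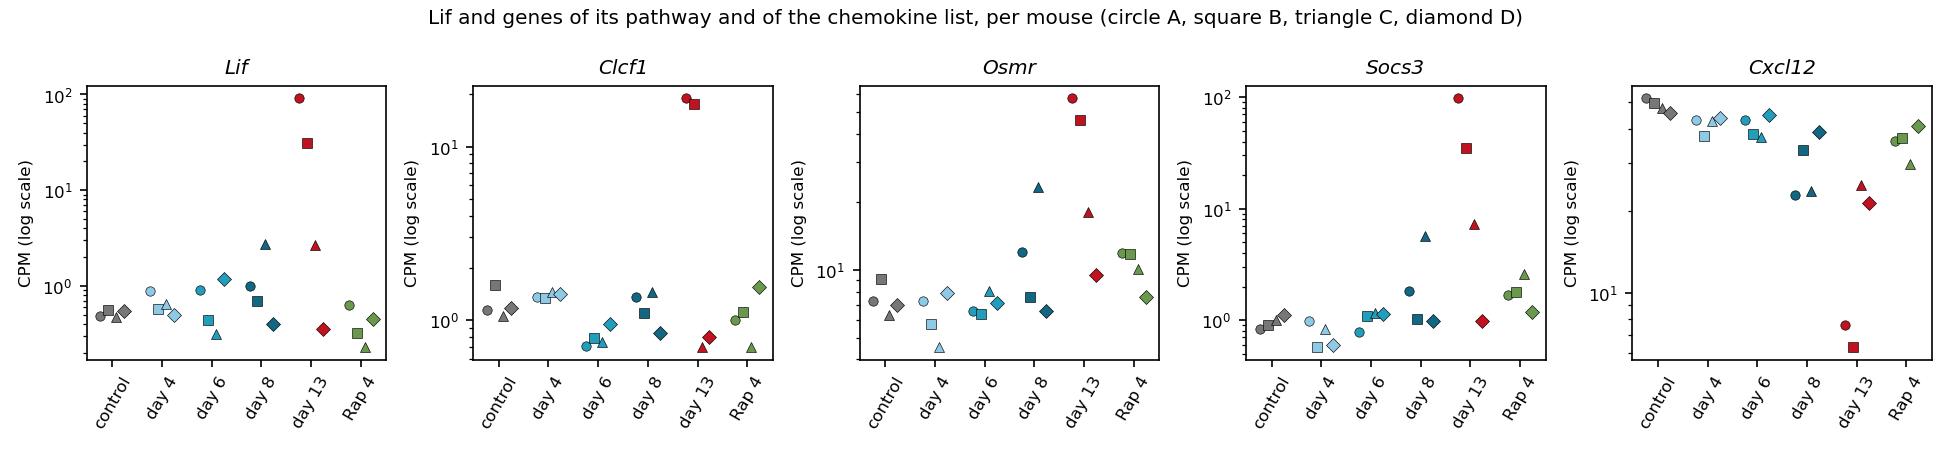
Lif and 4 genes of the pathway lists in each mouse, in CPM on log axes, with symbols for mice A to D. Lif, Clcf1, Osmr and Socs3 are highest in day 13 mice A and B, and Cxcl12 is lowest there.

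Of the TGF-beta lists, Pmepa1, an inhibitor of SMAD signaling, rose by 2.27 ± 0.53 on the log2 scale on day 13 (edgeR adjusted p = 0.0136), with Ccn2 at 1.39 ± 0.46. The activin gene Inhba (1.85 ± 0.37) was higher and Inhbb (-1.23 ± 0.20) was lower. Gdf15 was called higher (3.20 ± 0.62), but it had enough counts in no other comparison and entered this test through the day 13 mice. Bcl3 (3.72 ± 0.98), Zfp36 (2.50 ± 0.54), which destabilizes cytokine mRNA, and Ptgs2 (1.84 ± 0.38) led the NF-kB list, and Tlr2 (1.63 ± 0.45), Lrrc32 (1.51 ± 0.46) and Cd14 (1.42 ± 0.42) the list of processing and sensing. Il1a, the other IL-1 gene, was higher (1.53 ± 0.33) and Tnfsf10 lower (-0.97 ± 0.30). Tnfsf10 had already been called lower on day 4 (-0.62, edgeR adjusted p = 0.0356). It was also lower in Rap 4 mice against the controls (-0.96, edgeR adjusted p = 0.006), and its log2 fold change against day 13 was -0.003. Zfp36 had been called higher on day 4 (0.64, edgeR adjusted p = 0.0480). Of the chemokines, Ccl17 was higher (1.05 ± 0.15) and Cxcl5 (-2.39 ± 0.65) and Cxcl12 (-1.69 ± 0.41) were lower. Cxcl5 had been called lower on day 6 (-1.41, edgeR adjusted p = 0.04765) and day 8 (-2.06, edgeR adjusted p = 0.0166). Cxcl12, a constitutive chemokine of the brain, fell to 7.59 and 6.31 CPM in mice A and B and to 24.9 and 21.4 CPM in C and D, against 45.5 to 51.6 CPM in the controls, and was lower on day 8 too (-0.70, edgeR adjusted p = 0.0121).

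Against day 13, 21.1% of all genes were called in either direction in the Rap 4 mice. Called lower were 10 of 19 NF-kB genes, 9 of 15 STAT3 genes, 9 of 16 TGF-beta targets and 6 of 16 interferon genes. In these lists 0 genes were higher. Of 22 receptor genes (19 tested) 8 were lower and 1 higher, and of 15 for processing and sensing 6 and 1. Of 20 other chemokines (10 tested) 4 were lower and 1 higher, and of 20 other cytokines (12 tested) 3 and 1. Of 8 TGF-beta family genes (7 tested) 1 was lower and 2 higher. Socs3 (-4.29) was lower and Cxcl12 was higher (1.24, edgeR adjusted p = 0.0397). Against the controls, 2 genes of the STAT3 list were higher, Socs3 (0.92, edgeR adjusted p = 0.0409) and Lcn2, and Gfap was lower, while 3 interferon genes, Ifi44, Oasl2 and Gbp3, were lower (Lcn2, Gfap, Ifi44, Oasl2 and Gbp3 are named after their values were seen).

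**Figure D5:**
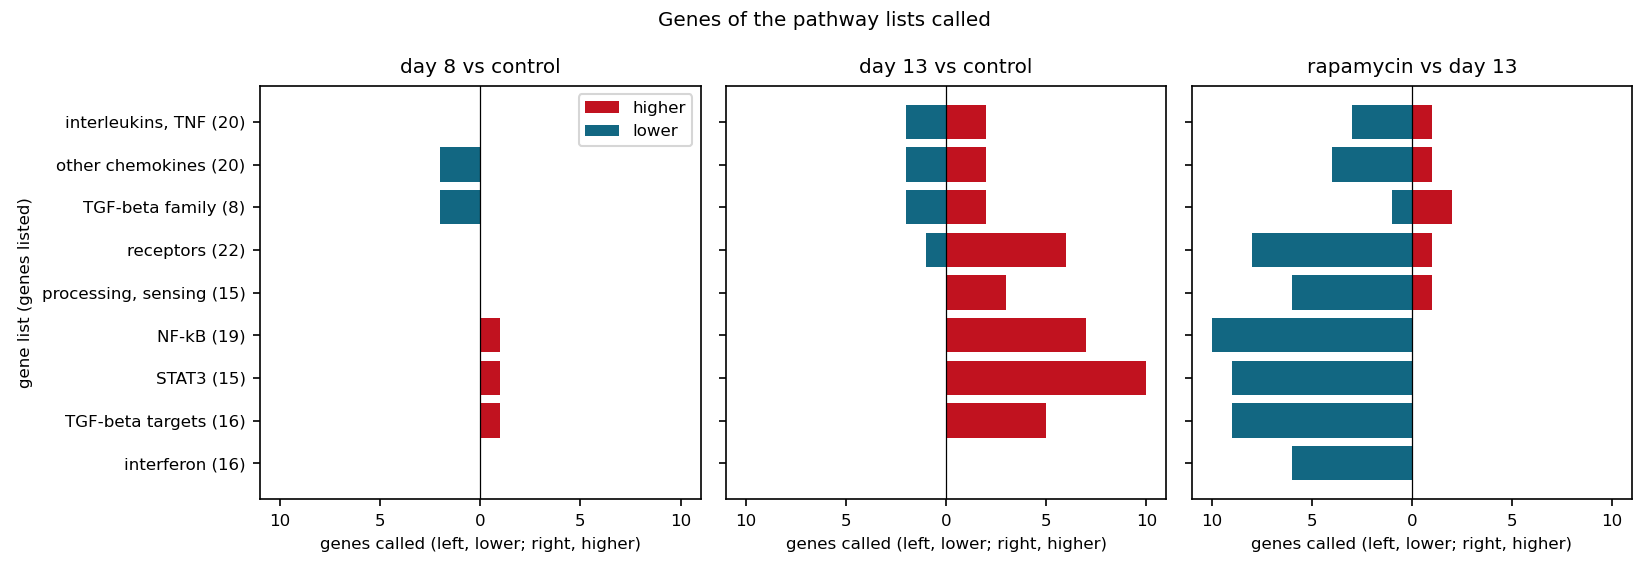
Number of genes of each pathway list called lower (blue, left) and higher (red, right) on day 8 and day 13 against the controls and in Rap 4 mice against day 13, with the size of each list in brackets. The STAT3 list has 10 genes called higher on day 13 and 9 called lower in Rap 4 mice against day 13.

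Markers of cell types moved with some of these groups. Their counts are read beside the share of all genes called, 16.5% on day 13, 1.41% for Rap 4 mice against the controls and 21.1% against day 13. Of the 12 microglia markers, 3 (C1qa, C1qb and C1qc) were higher on day 13 and none lower, the median log2 fold change of the list was -0.02, and its summed level was 314 to 461 CPM, against 309 to 364 CPM in the controls. In Rap 4 mice 4 of the 12 were lower than in the controls and the sum was 228 to 262 CPM, below all controls, as the mean of Tgfb1 was. Of 10 genes of activated microglia, 3 were higher on day 13 (Cd68, Spp1 and Gpnmb) and 1, Apoe, was lower. The median log2 fold change of this list was 0.42. Its summed level was 456 to 735 CPM, below the 737 to 822 CPM of the controls, but a sum mostly follows the most abundant genes. Of the same list, Gpnmb was already called higher on day 4 (log2 fold change 1.11, edgeR adjusted p = 0.00828), day 6 and day 8. Lpl was called higher on day 8 and Clec7a lower on day 6. The 8 markers of monocytes and neutrophils summed to 0.142 to 1.55 CPM over all 24 mice, too little for any of them to be tested on day 13, and Ly6g was at 0 in all controls, day 6 and Rap 4 mice. The 8 T and B cell markers summed to 0.395 to 1.30 CPM. All 5 red blood cell markers were lower on day 13 than in the controls. Of these, 4 were already lower on day 4 and on day 6 (background 0.68% and 1.32%). On day 8, 0 were called (background 3.99%), and in Rap 4 mice 2 were lower than in the controls. On day 13, 1 of 7 border macrophage markers and 2 of 7 excitatory neuron markers were higher, 1 of 7 astrocyte markers was lower, and 0 of 7 endothelial, 5 oligodendrocyte and 6 choroid plexus markers were called by edgeR or DESeq2 (3, 0 and 0 at an unadjusted p under 0.05). The endothelial sum was 179 to 187 CPM in Rap 4 mice, 223 to 251 CPM on day 13 and 212 to 248 CPM in the controls, and the choroid plexus sum varied within groups, from 61.1 to 1690 CPM in the controls. Of 10 genes induced by neuronal activity, which include Junb of the STAT3 list, 6 were higher on day 13, and their sum was 959, 751, 1370 and 195 CPM in mice A to D, against 229 to 288 CPM in the controls, so that mouse C, with the highest Ccl3 and Ccl4, was also highest here and mouse D was lowest. In Rap 4 mice against day 13, 8 of these 10 genes were lower, with a sum of 173 to 232 CPM, as were 5 of 12 microglia markers, 6 of 10 genes of activated microglia, 4 of 7 endothelial and 3 of 7 excitatory neuron markers. Of 7 astrocyte markers 2 were lower and 1 higher. The part of these markers in the results was not tested.

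Over the 24 mice, the genes whose log2 CPM followed Lif most closely, among 18254 genes with a mean of at least 1 CPM, were Tubb6 (Pearson r = 0.968), Sbno2 (0.961) and Neat1 (0.960). Without day 13 mice A and B these values were 0.800, 0.746 and 0.766. Those of Tgfb1 were Ptpn6 (0.867), Nfkbie (0.856) and Anxa3 (0.849), those of Il1b were Ell2 (0.823), Vopp1 (0.813) and Arpp19 (0.807), and those of Il6 were Sms-ps (0.778), mt-Rnr2 (0.654) and Gm30371 (0.649). The 24 mice share groups and differ in depth, so these values describe likeness only.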

How the data were processed

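Hippocampal RNA of 24 mice was sequenced as stranded, rRNA-depleted libraries read from both ends. The authors trimmed reads with CutAdapt 1.16.5, aligned them with STAR 2.7.2b to GRCm38 and assigned them to GENCODE genes with featureCounts 1.6.4, and deposited the read counts per gene without normalization. Strand setting and treatment of reads with several alignments are not given in the sources used here. Gene names and coordinates come from GENCODE M21, in which 55144 of 55385 identifiers were found. Groups and mouse letters come from the sample titles. Each comparison used edgeR 4.0.16 in R 4.3.3 on its 8 mice: filterByExpr, TMM factors, the quasi-likelihood test and Benjamini-Hochberg adjustment over all genes tested. For genes below the filter, CPM values were tested by exact permutation (two-sided, 70 arrangements), with adjustment over 35 tests. CPM uses TMM factors over all 24 mice, and log2 CPM a prior count of 2. Total counts of 28208561 to 126435936 per mouse set the precision. P-values measure the spread between these mice.

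Alternatives were DESeq2 1.42.0, its size factors, no filter, all 24 mice in a fit, no fold minimum, the letter as a replicate block, the number series as a block on day 8, and each mouse left out. Chosen after seeing the data were halved counts, counts thinned to the smallest library, day 13 mice C and D alone, and the alternative bounds for genes at 0 counts. No source used here says that a letter marks a shared litter or day, and the letters were not taken to pair mice. Genes were named by a rule: the 10 genes, up to 3 genes of each pathway list with the largest change among those called on day 13, and the 3 genes closest to each of the 10 genes with a median count of at least 10. A gene that this rule names is not reported here. The 10 genes and all lists were chosen with earlier results of these data known. The scripts were tested on simulated data. There, changes were placed only in genes with more counts than most of the 10 genes have, at an equal fold in all mice of a group. That test does not speak for rare RNAs or for changes in single mice.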

Additional observations from a re-analysis of the deposited data

Results flagged for a closer look

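In groups of 4 mice, a mouse was set apart when its gap to the nearest other mouse over the group's range exceeded Dixon's critical value. Of 58 groups of values examined over the 10 genes 3 held such a mouse, and chance gives about 1 in 20. Ccl12 was at 0.983 CPM in day 8 mouse C and at 0.172 to 0.256 CPM in the other 3 mice of its group. It was at 0.235 CPM in control mouse B and at 0.0740 to 0.0949 CPM in the other controls. Ccl3 was at 0.222 CPM in control mouse A and at 0.0316 to 0.0503 CPM in the other controls.

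Among Tsc1-Cre+ mice taken on day 13, rapamycin-treated and untreated mice differed in 4 genes in edgeR's test, with log2 fold changes of Rap 4 against untreated mice of -6.33 for Lif, -3.97 for Ccl12, -1.66 for Il1b and -1.35 for Tgfb1. Both the treated and the untreated mice lie outside the series of animal numbers of the controls. Whether they share a series with each other is not shown here, so treatment and cohort cannot be told apart. No Tsc1-Cre- mouse of day 13 or given rapamycin was analysed here.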

How the results depend on the processing

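On day 13 against the controls, 5 of the 10 genes were called. Without the low-count filter and with all 24 mice in the fit there were 8 (backgrounds 9.77% and 21.4%), and DESeq2 called 7 (17.1%), with Tnf and Ccl2 added under all 3 and Cxcl10 under the first 2. Halved counts gave 3 and thinned counts 2, in part because only 3 genes then passed the filter, and mice C and D alone gave 1. Leaving out 1 mouse at a time gave 2 to 6: 2 without control B, control D or day 13 mouse A, and 3 without control A or C. For rapamycin against day 13, DESeq2 and no filter gave 9 in place of 4, all 24 mice 8 and mice C and D alone 2, and leaving out 1 mouse gave 3 to 6. On day 8 DESeq2 gave 1 (Lif), and leaving out 1 mouse gave 0 to 1. On day 6 thinned counts gave 1 (Tgfb1, lower), and on days 4 and 6 and for rapamycin against the controls leaving out 1 mouse gave 0 to 0. Over the 6 groups, halved and thinned counts gave 4 of 4 tested in place of 8, and leaving out 1 mouse gave 6 to 9. Beyond the number of genes tested, the cause of these shifts was not tested.

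With the mouse letter as a replicate block, 4 genes were called on day 13 (Tgfb1 was lost, log2 fold change 0.68, edgeR adjusted p = 0.0664), 3 for rapamycin against day 13 (Il1b was lost), 8 over the 6 groups and 0 elsewhere. On day 8 a block for animal-number series gave 0 as well. Same-letter mice had correlations of their deviations from -0.205 to 0.165, and in no comparison were all 4 over 0.1, so the letters were not used to pair mice.

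The log2 fold changes that turned in sign were small and not called, and are given as ranges with 1 mouse left out. On day 4, Il1b lay between -0.74 and 0.069 (above 0 without control C) and Tgfb1 between -0.091 and 0.042 (above 0 without control D or day 4 mouse B or D, and 0.012 with thinned counts). On day 6, Il1b lay between -0.58 and 0.25 (above 0 without control C or day 6 mouse C), and on day 8 Tgfb1 lay between -0.14 and 0.031 (above 0 without day 8 mouse B). Under rapamycin against the controls, Il1b lay between -0.23 and 0.58 (below 0 without control B or D or Rap 4 mouse C). Of the fold changes with 1 mouse left out, 169 kept their sign and call, 20 lost the call, 1 gained it and 10 turned in sign.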
